A study of Mus musculus with 12 samples.

Results

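A group of genes that glucocorticoid hormones or metals are known to control were followed across the brains of mutant and control mice: Nr3c1, Fkbp5, Tsc22d3, Zbtb16, Sgk1, Pdk4, Plin4, Sult1a1, Mt1 and Mt2. They are the 10 genes, of 37042 gene names on the array, whose names in the scanner files match that list, and 19 of the 56568 probes analysed belong to them. RNA of basal forebrain and cerebral cortex was hybridised to 12 single-colour Agilent mouse arrays. The DKO mice carried ChatCre, in which Cre follows the cholinergic gene Chat, and were PS2-/-. The Con mice had no Cre and were PS2+/-. Both genotypes also carried a floxed allele, which is not described here. There were 3 mice of each genotype, 2 months old, labelled male and killed by cervical dislocation, and both regions were taken from every mouse. The tissue was bulk tissue, so fewer cells of a type and less RNA per cell cannot be told apart. A level below is the log2 intensity of a gene's brightest probe minus the 75th percentile of its array. Levels of different genes come from different probes and are not compared with each other. A gene passed where its p from limma was under 0.05 after Benjamini-Hochberg adjustment across every gene tested.

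Several properties of the arrays touch every comparison below. Psen2, the gene named PS2 in the labels, differed by -1.87 (log2, DKO minus Con) in basal forebrain and by -2.12 in cortex, lower in DKO as the labels state. The 8 markers of cholinergic neurons were all higher in basal forebrain than in cortex, in DKO and in Con. Xist, made from the inactive X chromosome of females, was well above background in DKO mice 1 and 3 (-1.89 and -1.53 in basal forebrain) although all mice are labelled male. Xist was not above background in DKO mouse 2 or in any Con mouse. Values are therefore given for each mouse, and tests also without DKO mice 1 and 3. All basal forebrain arrays lay on slide 1, together with the cortex arrays of DKO mice 1 and 2. The cortex arrays of DKO mouse 3 and of the 3 Con mice lay on slide 2. Mean levels of blood-cell markers were higher in DKO in both regions and are given below.

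Glucocorticoids cross into the brain and bind the glucocorticoid receptor, which Nr3c1 encodes. The bound receptor enters the nucleus and raises the transcription of many genes, some of which dampen the hormone's own effect or redirect metabolism. Fkbp5, Sgk1, Tsc22d3 and Zbtb16 are among those used most often as readouts of receptor activity in brain tissue, where glia and blood vessels respond as well as neurons. The metallothioneins Mt1 and Mt2 are small zinc-binding proteins, transcribed under the metal sensor MTF1 and also induced by glucocorticoids.

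DNA upstream of these genes was searched for the letters of a receptor element and of a metal element, and the 3 windows of 250 bases before a RefSeq transcription start that held a match are printed. RefSeq (assembly GRCm38.p6) gave 15 windows for 8 of the 10 genes, Nr3c1 and Zbtb16 having none in the table. They were searched on both strands for the full palindrome of the glucocorticoid response element, AGAACA and TGTTCT with any 3 bases between them. It stood in 1 of 15 windows, that of 1 of the 6 Sgk1 starts, and in 3 of 32851 windows of all genes (0.00913%). It begins 189 bases before that start, at chr10:21993640-21993889 on the plus strand, and is in capitals.

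Sgk1: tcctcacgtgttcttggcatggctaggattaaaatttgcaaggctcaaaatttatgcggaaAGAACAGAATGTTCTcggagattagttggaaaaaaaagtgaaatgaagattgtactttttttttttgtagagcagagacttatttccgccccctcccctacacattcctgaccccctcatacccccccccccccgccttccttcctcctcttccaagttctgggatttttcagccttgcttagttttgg

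The core of the metal response element was searched on both strands as TGCACNC or TGCGCNC, which do not match the same letters. At least 1 core stood in 21.4% of all windows and 3 or more in 1.26%. The Mt1 window (chr8:94178839-94179088, plus strand) held 1 core and the Mt2 window (chr8:94172368-94172617, plus strand) held 3, in capitals. The last of the 3 matches on the opposite strand, so its capitals are the reverse complement of the core. Among the 8 genes these were the only 2 with a core. A match describes letters and not binding, and longer-range elements lie outside these windows.

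Mt1: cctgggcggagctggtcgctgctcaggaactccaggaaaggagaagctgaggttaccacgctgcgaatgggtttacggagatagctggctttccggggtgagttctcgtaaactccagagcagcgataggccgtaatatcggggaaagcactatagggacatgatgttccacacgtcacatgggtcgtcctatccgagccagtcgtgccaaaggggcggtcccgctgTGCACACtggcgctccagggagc
Mt2: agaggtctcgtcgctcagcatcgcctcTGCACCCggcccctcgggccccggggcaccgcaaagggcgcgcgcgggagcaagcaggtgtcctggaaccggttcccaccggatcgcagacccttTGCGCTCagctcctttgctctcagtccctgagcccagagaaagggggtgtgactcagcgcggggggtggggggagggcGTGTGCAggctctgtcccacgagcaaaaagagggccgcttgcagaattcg

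The measured RNA is what each 60-base probe binds, and 3 probes show what was read. The second Sult1a1 probe (mm9, chr7:133816657-133816716, minus strand) ends on a stop codon, in capitals, and shares 8 bases with the brighter probe. The second Fkbp5 probe lies at chr17:28574995-28575054 and the second Zbtb16 probe spans 52017 bases of chromosome 9, so it binds spliced RNA. Both are on the minus strand and have no capitals, since no letter of them is singled out.

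Sult1a1: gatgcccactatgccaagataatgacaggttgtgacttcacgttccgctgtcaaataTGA
Fkbp5: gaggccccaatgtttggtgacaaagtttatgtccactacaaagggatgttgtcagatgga
Zbtb16: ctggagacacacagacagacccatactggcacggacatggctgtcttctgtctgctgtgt

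None of the 10 genes passed in a genotype comparison: 0 of 10 in basal forebrain, 0 of 10 in cortex and 0 of 10 over both regions. Few genes of the whole array passed either, 0.0309% of 25914 in basal forebrain, 0.0117% of 25631 in cortex and 0.157% of 26768 over both regions. At an unadjusted p under 0.05, 2 of the 10 were higher in DKO in basal forebrain, against 2.65% of all genes. In cortex 4 of the 10 were higher against 6.84%, and over both regions 4 of 10 against 4.44%. The median difference of the 10 (DKO minus Con) was 0.22 in basal forebrain, 0.27 in cortex and 0.24 over both regions, where the medians of all genes were 0.00, -0.05 and -0.02. Of the 10, 8 had a positive difference in basal forebrain and 9 in cortex, against 51.0% and 41.6% of all genes. The 10 were chosen with earlier results of these data known, so such shares, here and below, describe them and test nothing. The individual genes, below, differed in how far each DKO mouse departed from Con.

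**Figure D1:**
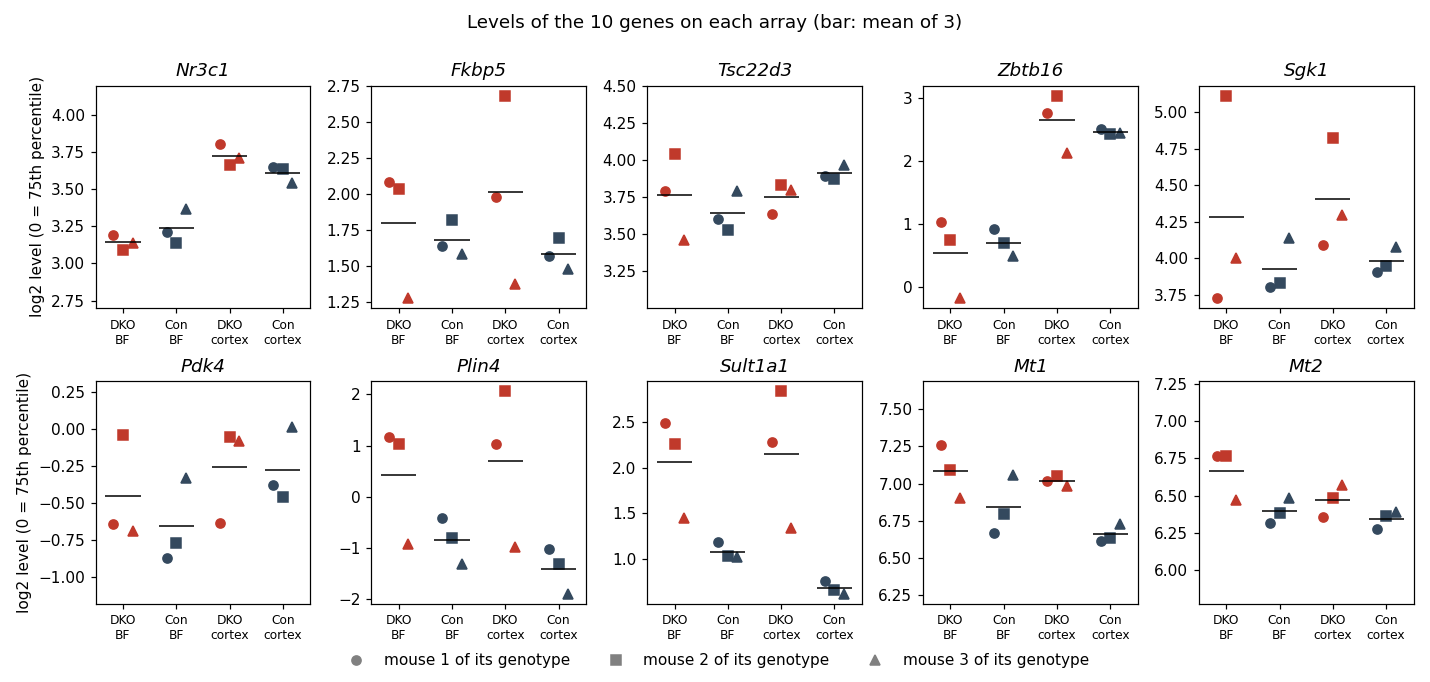
Level of each of the 10 genes on each of the 12 arrays (y axis, log2 relative to the array's 75th percentile; x axis, DKO and Con in basal forebrain, BF, and cortex). Symbols mark the mouse and bars the mean of 3. Sult1a1 is higher on every DKO array than on any Con array of its region, while Plin4 and Fkbp5 are high in DKO mice 1 and 2.

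Sult1a1 was, of the 10 genes, the single one with separate genotypes in each of the regions. The gene encodes a cytosolic sulfotransferase that sulfates phenols and catecholamines, and it is glucocorticoid-inducible in rodent tissues. In basal forebrain its level was 2.48, 2.25 and 1.45 in DKO mice 1, 2 and 3, against 1.18, 1.03 and 1.02 in Con mice 1, 2 and 3. In cortex it was 2.28, 2.83 and 1.34 in DKO, against 0.75, 0.66 and 0.62 in Con. Every DKO array lay above every Con array of its region, with DKO mouse 3 nearest to Con in both. The difference was 0.98 ± 0.25 (log2, SE), a 1.98-fold higher level, in basal forebrain and 1.47 ± 0.32, or 2.78-fold, in cortex. Limma's p was 0.00542 in basal forebrain (adjusted p = 0.967) and 0.00196 in cortex (adjusted p = 0.261). Its second probe gave 0.96 and 1.44, with the groups separate in the same way.

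Plin4 had the widest spread among DKO mice of the 10 genes. Perilipin 4 coats nascent lipid droplets and is abundant in adipose tissue and muscle. Its level in basal forebrain was 1.18, 1.03 and -0.91 in DKO, against -0.42, -0.81 and -1.32 in Con. In cortex it was 1.03, 2.06 and -0.99 in DKO, against -1.03, -1.32 and -1.89 in Con. DKO mice 1 and 2 were high in both regions, whereas DKO mouse 3 lay inside the Con range in basal forebrain and just above it in cortex. The mean difference was 1.28 ± 0.55 in basal forebrain (adjusted p = 0.971) and 2.11 ± 0.67 in cortex (adjusted p = 0.261). Against the Con mean of their region, single DKO arrays ran from -0.06 (mouse 3, basal forebrain) to 3.47 (mouse 2, cortex), the last an 11.1-fold higher level.

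Fkbp5 followed the same mice at smaller size. FKBP51, its product, is a co-chaperone that holds the receptor in a state of low hormone affinity and is itself induced by the receptor, a short feedback loop. In basal forebrain Fkbp5 was at 2.08, 2.03 and 1.28 in DKO, against 1.64, 1.82 and 1.58 in Con. Cortical levels were 1.97, 2.68 and 1.37 in DKO, against 1.57, 1.69 and 1.48 in Con. DKO mice 1 and 2 lay above all 3 Con mice in both regions and DKO mouse 3 below all 3 in both. These opposite positions left mean differences of 0.12 ± 0.21 in basal forebrain (adjusted p = 0.977) and 0.43 ± 0.28 in cortex (adjusted p = 0.384). The dimmer Fkbp5 probe printed above gave 0.51 and 0.74, neither of which passed (adjusted p = 0.982 and 0.284). On that probe DKO mice 1 and 2 again lay above all 3 Con mice in both regions. DKO mouse 3 lay inside the Con range in basal forebrain (-1.72, against -2.27 to -1.57). In cortex it lay just below the lowest Con mouse (-2.55 against -2.52). The third probe was above background on 4 of 12 arrays.

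Zbtb16 kept that order too, with DKO mouse 3 lowest. It encodes the zinc finger repressor PLZF, which glucocorticoids induce strongly in many cell types. Levels in basal forebrain were 1.02, 0.74 and -0.18 in DKO, against 0.92, 0.69 and 0.49 in Con. In cortex Zbtb16 was at 2.77, 3.04 and 2.13 in DKO, against 2.51, 2.44 and 2.44 in Con. The DKO range enclosed the whole Con range in both regions. Differences were -0.17 ± 0.30 and 0.19 ± 0.20, with adjusted p of 0.975 and 0.590. The spliced probe gave -0.24 in basal forebrain and 0.20 in cortex.

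Sgk1 was high in a single animal. The kinase SGK1 regulates ion channels and transporters and is a rapid target of the receptor. Its basal forebrain level was 3.73, 5.11 and 4.003 in DKO, against 3.80, 3.83 and 4.14 in Con. In cortex it was 4.09, 4.82 and 4.30 in DKO, against 3.91, 3.95 and 4.08 in Con. DKO mouse 2 stood 1.19 (2.28-fold) above the Con mean in basal forebrain and 0.85 (1.80-fold) above it in cortex. DKO mouse 1 lay below all Con mice in basal forebrain, and the 3 DKO mice lay above all Con mice in cortex. The differences were 0.36 ± 0.34 in basal forebrain (adjusted p = 0.971) and 0.43 ± 0.17 in cortex (adjusted p = 0.261). A second Sgk1 probe, near background, gave -0.27 in basal forebrain and 0.57 in cortex (adjusted p = 0.982 and 0.355).

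Tsc22d3 and Pdk4 showed no shared direction. Tsc22d3 encodes GILZ, a leucine zipper protein that carries part of the anti-inflammatory action of glucocorticoids. In basal forebrain it was at 3.79, 4.04 and 3.46 in DKO, against 3.60, 3.53 and 3.79 in Con, and the groups overlapped. In cortex it was at 3.63, 3.83 and 3.79 in DKO, against 3.89, 3.87 and 3.97 in Con, and every DKO array was below every Con array. Differences were 0.12 ± 0.15 (adjusted p = 0.971) and -0.16 ± 0.07 (adjusted p = 0.265). A second Tsc22d3 probe gave 0.13 and -0.06, and the third probe was above background on 0 of 12 arrays. Pdk4, a mitochondrial kinase that restrains glucose oxidation in fasting, was at -0.64, -0.04 and -0.69 in DKO basal forebrain, against -0.87, -0.77 and -0.33 in Con. Cortical Pdk4 was at -0.64, -0.05 and -0.08 in DKO, against -0.38, -0.46 and 0.01 in Con. Both regions overlapped, and the differences were 0.20 ± 0.22 and 0.02 ± 0.19 (adjusted p = 0.971 and 0.962).

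The metallothioneins differed little but within a narrow spread. Mt1 was at 7.26, 7.09 and 6.90 in DKO basal forebrain, against 6.66, 6.79 and 7.06 in Con. In cortex Mt1 was at 7.01, 7.05 and 6.99 in DKO, against 6.62, 6.63 and 6.72 in Con. The cortical groups were separate, with an SD of 0.03 in DKO and 0.06 in Con, and the basal forebrain groups overlapped. The cortical difference of 0.36 ± 0.05, or 1.28-fold, ranked 16 of 25631 genes by p, first among the 10 members, and did not pass (adjusted p = 0.104). In basal forebrain it was 0.25 ± 0.14 (adjusted p = 0.971). A dimmer Mt1 probe gave 0.13 and 0.40 (adjusted p = 0.989 and 0.365). On that probe the cortical groups overlapped, at -1.67, -1.99 and -1.66 in DKO, against -2.31, -1.59 and -2.62 in Con.

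Mt2, its neighbour on chromosome 8, was at 6.76, 6.77 and 6.47 in DKO basal forebrain, against 6.32, 6.38 and 6.48 in Con. Cortical Mt2 was at 6.35, 6.48 and 6.57 in DKO, against 6.27, 6.36 and 6.39 in Con. DKO mice 1 and 2 lay above Con in basal forebrain, and DKO mice 2 and 3 in cortex. The differences were 0.28 ± 0.11 (adjusted p = 0.971) and 0.13 ± 0.07 (adjusted p = 0.301). Averaged over both regions, the 3 DKO mice lay above the 3 Con mice for Mt1, Mt2 and Sult1a1, 3 of 10 genes against 6.44% of all genes.

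The receptor gene itself, Nr3c1, showed small differences on its brighter probe. In basal forebrain it was at 3.19, 3.09 and 3.14 in DKO, against 3.21, 3.14 and 3.36 in Con. In cortex it was at 3.81, 3.66 and 3.71 in DKO, against 3.65, 3.63 and 3.54 in Con, so the cortical groups were separate by a small margin. The differences were -0.09 ± 0.08 and 0.12 ± 0.06 (adjusted p = 0.971 and 0.310). The second probe read 3.22, 3.01 and 2.64 in DKO cortex, against 2.33, 2.25 and 2.38 in Con. Its difference there was larger, 0.64, again without passing (adjusted p = 0.249), and -0.05 in basal forebrain. The cortex arrays of DKO mice 1 and 2 lay on slide 1. That of DKO mouse 3, nearest to Con on this probe, lay on slide 2 with the Con cortex arrays.

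**Figure D2:**
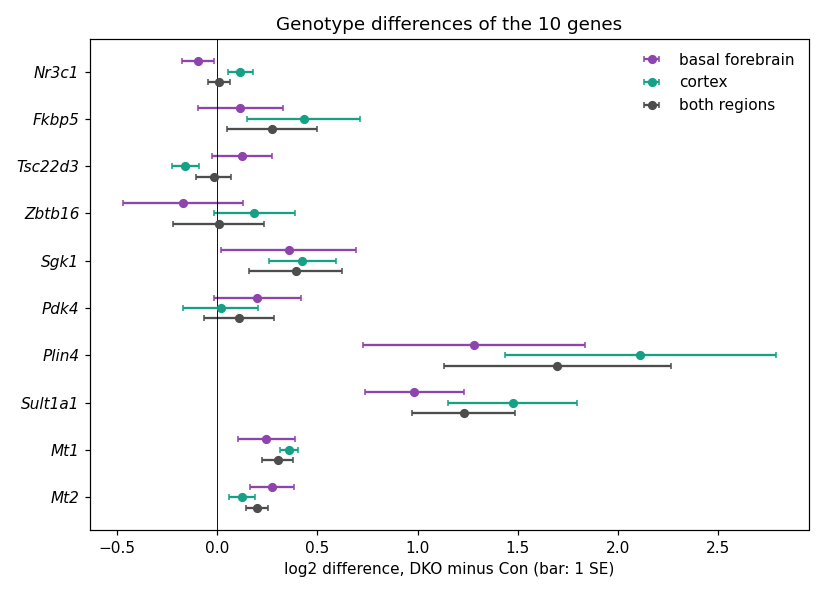
Genotype difference of each gene (x axis, log2 of DKO over Con; bars, 1 SE) in basal forebrain, cortex and both regions, with 3 mice a genotype. Plin4 and Sult1a1 lie farthest to the right and have wide errors, and Mt1 in cortex has a small difference with a narrow error. None passed adjustment over all genes.

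The number of the 10 genes lying outside the Con range differed between the DKO mice. In basal forebrain DKO mouse 1 had 6 above all 3 Con mice and 1 below, DKO mouse 2 had 8 above and 1 below, and DKO mouse 3 had 1 above and 3 below. The shares of all genes above Con there were 29.5%, 18.2% and 19.9% for mice 1, 2 and 3, and the shares below were 20.4%, 22.6% and 24.8%. In cortex DKO mouse 1 had 7 above and 2 below, DKO mouse 2 had 8 above and 1 below, and DKO mouse 3 had 6 above and 3 below. There the shares of all genes above Con were 31.1%, 31.7% and 25.1%, and those below were 44.9%, 47.0% and 28.4%. All 3 DKO arrays lay above all 3 Con arrays for 1 of 10 genes in basal forebrain (4.64% of all genes) and for 5 of 10 in cortex (8.87%). All 3 lay below for 0 of 10 (5.32%) and 1 of 10 (13.5%).

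**Figure D3:**
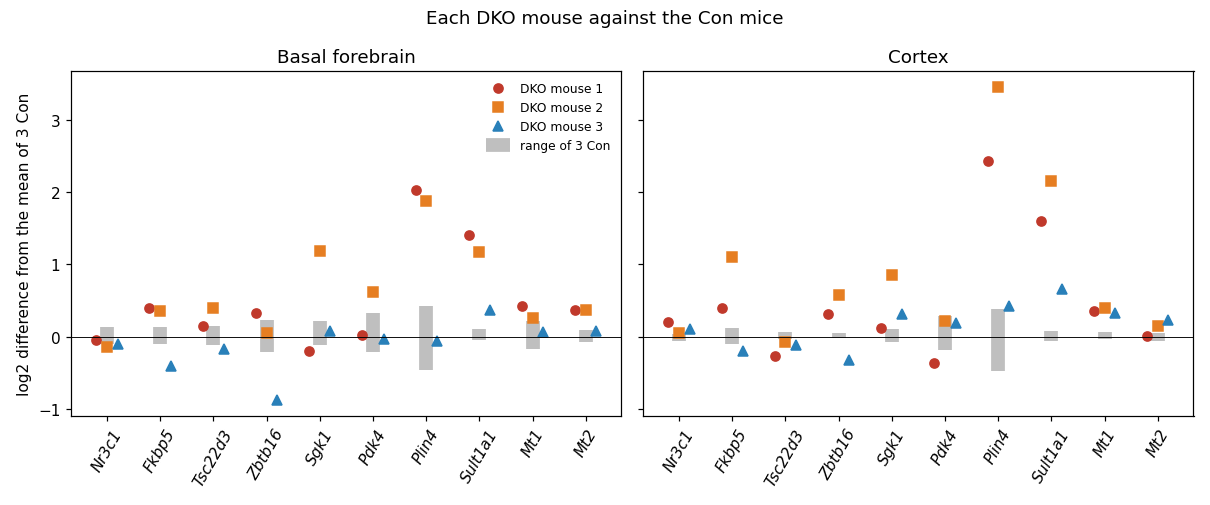
Each DKO mouse minus the mean of the 3 Con mice of its region (y axis, log2) for the 10 genes, with the range of the Con mice in grey. Plin4, Sult1a1, Fkbp5, Zbtb16 and Mt1 have DKO mouse 3 lowest of the DKO mice in both regions. Sgk1, Pdk4 and Tsc22d3 have DKO mouse 2 highest in both.

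Leaving out DKO mouse 3 changed the calls in cortex and over both regions. Without it 5 of 10 genes passed in cortex: Fkbp5 (0.75, adjusted p = 0.0182), Zbtb16 (0.45, 0.00640), Plin4 (2.95, 0.00143), Sult1a1 (1.88, 0.000658) and Mt1 (0.38, 0.00130). In that set every DKO cortex array is on slide 1 and every Con cortex array on slide 2, so slide and genotype cannot be told apart, and 9724 of 25908 genes passed. Over both regions without DKO mouse 3, Plin4 (2.45, adjusted p = 0.0208) and Sult1a1 (1.58, 0.00305) passed, as did 178 of all 26867 genes. There each DKO mean is from slide 1 alone and each Con mean from both slides, so slide is partly tied to genotype. This holds for any set over both regions without DKO mouse 3. In basal forebrain, where 1 slide holds all 6 arrays, 0 of 10 passed without it, with Sult1a1 at 1.29 (adjusted p = 0.0843) and Plin4 at 1.95 (0.297). Without DKO mice 1 and 3, the mice with Xist RNA, DKO mouse 2 stands alone and its spread is taken from the Con mice. Then 0 of 10 passed in basal forebrain, 6 in cortex (those 5 and Sgk1 at 0.85) and 1 over both regions, Sult1a1 at 1.67 (adjusted p = 0.0391). In cortex 7733 of all 26113 genes passed in that set, and slide and genotype cannot be told apart there either. On slide 2 alone, where DKO mouse 3 faces the 3 Con mice, the cortical differences were 0.67 for Sult1a1, 0.42 for Plin4, 0.33 for Mt1, -0.20 for Fkbp5 and -0.33 for Zbtb16, and 0 of 10 passed. Fkbp5 and Zbtb16 thus had the opposite sign to the one over all 6 cortex arrays.

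Blood-cell markers had higher mean levels on every DKO array than on any Con array of the region. The mean level of 7 red cell markers, of 9 listed, was 2.32, 0.71 and 1.45 in DKO basal forebrain, against -0.998, -0.81 and -0.97 in Con. In cortex it was 1.03, 1.80 and 0.76 in DKO, against -0.56, -0.85 and -0.90 in Con. Of the red cell markers tested, 6 of 6 had all DKO arrays above all Con arrays in each region. Neutrophil markers did so for 8 of 10 in basal forebrain and 9 of 10 in cortex, and B-cell markers for 7 of 7 and 5 of 6. The shares of all genes were 4.64% in basal forebrain and 8.87% in cortex. Over both regions 6 of 6 red cell, 5 of 10 neutrophil and 6 of 7 B-cell markers passed, against 0.157% of all genes. Within single regions only B-cell markers of these passed, 5 of 7 in basal forebrain and 1 of 6 in cortex. There 0.0309% and 0.0117% of all genes passed. A marker could enter through DKO alone, so these counts describe the arrays and support nothing. On single arrays 0 to 1 of the 7 red cell markers were not above background in DKO and 1 to 2 in Con, and of the 10 neutrophil markers 0 in DKO and 0 to 2 in Con. The mean of 10 neutrophil markers was -1.17, -1.86 and -2.19 in DKO basal forebrain, against -3.49, -3.73 and -4.04 in Con, and -1.25, -0.76 and -1.79 in DKO cortex, against -3.24, -4.03 and -3.67 in Con. Endothelial and mural markers, 13 genes, averaged 1.36, 1.22 and 1.07 in DKO basal forebrain, against 1.01, 0.92 and 1.00 in Con, and 1.07, 1.02 and 1.099 in DKO cortex, against 0.87, 0.76 and 1.00 in Con. None of these 13 genes passed in any genotype comparison. Their median difference was 0.15 in basal forebrain and 0.04 in cortex, 12 and 8 of the 13 were positive, and 3 had all DKO arrays above all Con arrays in each region. B-cell markers, 7 genes, averaged between -4.67 and -3.48 on the DKO arrays, against between -7.03 and -6.57 on the Con arrays, with 0 to 1 of the 7 not above background in DKO and 3 to 4 in Con. Markers of astrocytes, oligodendrocytes, choroid plexus, meninges, neurons and cholinergic neurons held 0 genes that passed by genotype, and their median differences ran from -0.10 to 0.13 in basal forebrain and from -0.61 to 0.43 in cortex. The 10 astrocyte markers, from cells that make much of the brain's Mt1 and Mt2, had median differences of 0.07 (basal forebrain) and -0.01 (cortex). These medians combine both directions. All DKO arrays lay above all Con arrays for 2 of the 10 in basal forebrain and 4 in cortex, and below for 1 and 2. Of all genes, 4.64% and 8.87% lay above and 5.32% and 13.5% below. The part of any of these cells in the differences of the 10 genes was not tested.

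The genes whose levels ran most like each member across the 12 arrays, after the mean of each region was removed, are a description, and the points share mice, slides and genotype. Sult1a1 was closest to Vwf, the clotting factor of endothelial cells (r = 0.99), and to Fam107a (r = 0.98). Vwf was at 3.37, 2.81 and 2.38 in DKO basal forebrain, against 1.90, 1.69 and 1.72 in Con, and at 2.72, 3.26 and 1.80 in DKO cortex, against 0.94, 0.77 and 0.84 in Con. Without DKO mice 1 and 2, on 8 arrays, r for Vwf was 0.99. Plin4 was closest to Ly6c1 (r = 0.97) and its near-identical copy Ly6c2 (r = 0.96), and without DKO mice 1 and 2 these were 0.30 and 0.28. Ly6c1, an endothelial surface protein in brain, was at 4.62, 4.53 and 4.07 in DKO basal forebrain, against 4.11, 4.11 and 4.14 in Con.

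Fkbp5 was closest to Hif3a, a receptor-inducible inhibitor of the hypoxia response (r = 0.97, and 0.91 without DKO mice 1 and 2), then to Sdcbp2 (r = 0.95). Hif3a was at -0.55, -0.26 and -1.54 in DKO basal forebrain, against -0.70, -0.79 and -1.03 in Con, and at -0.62, 0.41 and -1.65 in DKO cortex, against -1.04, -1.02 and -1.37 in Con. As for Fkbp5, DKO mouse 3 was lowest in both regions, but DKO mice 1 and 2 had the reverse order in basal forebrain. Sgk1 was closest to the arrestin-domain gene Arrdc2 (r = 0.95) and to Trp53inp1 (r = 0.93), at 0.58 and 0.47 without DKO mice 1 and 2. Arrdc2 was at 1.02, 2.23 and 0.95 in DKO basal forebrain, against 1.01, 1.04 and 1.21 in Con, high in DKO mouse 2 as Sgk1 was.

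For the other members, the closest genes were Pkm and Ift27 for Mt1 (r = 0.95 and 0.94), Pip5k1a and Fabp4 for Mt2 (0.96 and 0.91) and Wfikkn2 and Fkbp7 for Zbtb16 (0.95 and 0.95). They were Susd6 and Arid5b for Tsc22d3 (r = 0.91 and 0.90), Plekhf1 and Utp14b for Pdk4 (0.89 and 0.89) and Nme5 and Scp2 for Nr3c1 (0.93 and 0.92). Between members, Plin4 and Sult1a1 had r of 0.97 over 12 arrays and 0.49 over 8. Fkbp5 and Plin4 had 0.89 and 0.10, and Fkbp5 and Zbtb16 had 0.82 and 0.82. Mt1 and Mt2 had 0.80 and 0.93, and Sgk1 and Mt1 had 0.46 and 0.98. Pairs with Nr3c1 lay between -0.29 and 0.35 over the 12 arrays.

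**Figure D4:**
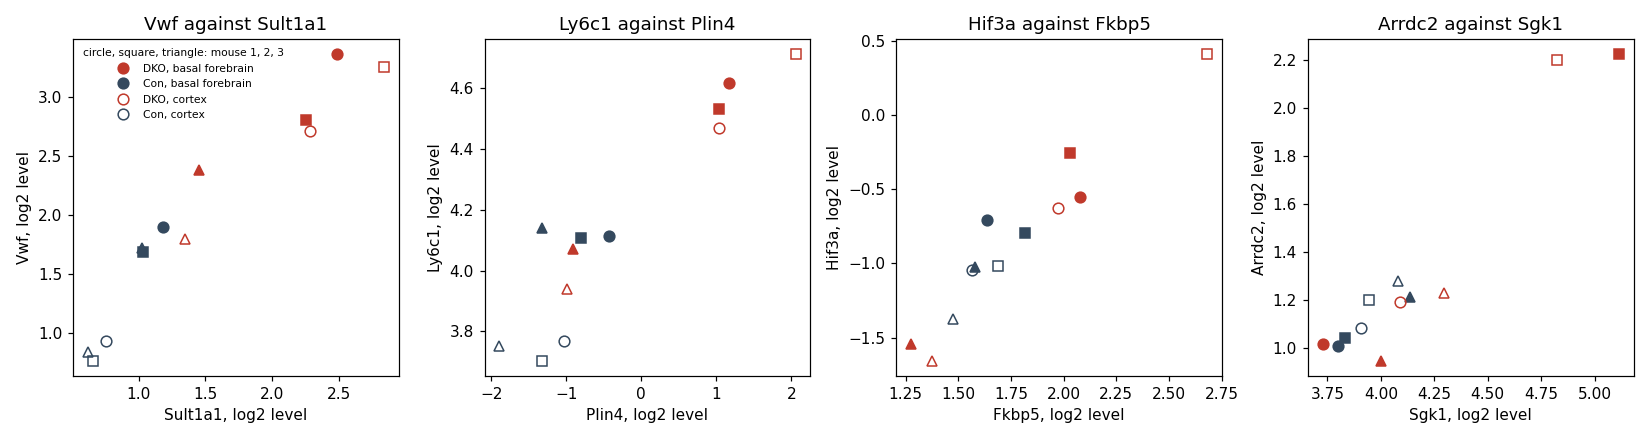
Level of the closest gene (y axis, log2) against that of Sult1a1, Plin4, Fkbp5 and Sgk1 (x axis, log2) on 12 arrays, with filled symbols for basal forebrain and open symbols for cortex. The upper right of each panel holds arrays of DKO mice 1 and 2, and for Sgk1 those of DKO mouse 2 only.

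In a wider list of 38 other genes known to respond to glucocorticoids, 0 passed in any genotype comparison. In basal forebrain 30 of 38 had a positive difference (51.0% of all genes), with a median of 0.14, and 27 of 38 did in cortex (41.6% of all genes), with a median of 0.19. All DKO arrays lay above all Con arrays for 10 of 38 in each region, against 4.64% of all genes in basal forebrain and 8.87% in cortex. This list too was chosen with earlier results of these data known, so its shares are a description and not a test. Lcn2, which encodes the iron-siderophore protein lipocalin 2 and is also a neutrophil marker, had the smallest p. It was at 1.12, -0.35 and -1.07 in DKO basal forebrain, against -3.17, -3.26 and -2.95 in Con. In cortex Lcn2 was at 0.69, 1.73 and -1.06 in DKO, against -2.95, -2.85 and -2.67 in Con. Over both regions it was 3.15 ± 0.44 higher in DKO, with adjusted p = 0.0524, just outside the threshold. Every DKO array of Lcn2 lay above every Con array of its region.

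Other genes of that list with small p had their groups separate in both regions. Cebpd, a transcription factor of acute inflammation, was at 2.02, 2.33 and 1.74 in DKO basal forebrain, against 1.37, 1.02 and 1.65 in Con, and at 1.96, 2.75 and 2.02 in DKO cortex, against 1.20, 1.23 and 1.36 in Con. Angptl4, a lipoprotein lipase inhibitor, differed by 0.73 ± 0.20 in basal forebrain and 0.74 ± 0.14 in cortex (adjusted p = 0.971 and 0.245). Pla2g3, a secreted phospholipase, differed by 0.82 ± 0.20 and 1.19 ± 0.39 (adjusted p = 0.897 and 0.261). The well-known brain targets Per1, a clock gene, and Klf9, a zinc finger transcription factor, differed by 0.03 ± 0.16 and -0.15 ± 0.10 in basal forebrain and by 0.01 ± 0.20 and -0.04 ± 0.07 in cortex. Per1 and Klf9 were chosen for mention after their values were seen.

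Genes that supply the receptor with hormone or with chaperones did not pass either, 0 of 15. Their median difference was -0.01 in basal forebrain and 0.02 in cortex. Hsd11b1, the enzyme that regenerates active glucocorticoid inside cells, was at 0.07, 0.49 and 0.45 in DKO basal forebrain, against 0.65, 0.53 and 0.85 in Con, all DKO below all Con. The mineralocorticoid receptor gene Nr3c2 differed by -0.18 ± 0.07 in basal forebrain and 0.05 ± 0.09 in cortex. The corticotropin-releasing hormone gene Crh differed by -0.37 ± 0.13 in cortex, and the Hsp90 co-chaperone gene Ptges3 by -0.35 ± 0.11 there (adjusted p = 0.261 for both).

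Among 18 genes of zinc handling and the other metallothioneins, 0 passed. Mt3, the metallothionein of the central nervous system, differed by 0.10 ± 0.09 in basal forebrain and -0.12 ± 0.09 in cortex, with the groups overlapping in both. Cp, the copper-binding ferroxidase ceruloplasmin, was at 0.40, 0.85 and -0.59 in DKO cortex, against -0.98, -1.12 and -0.67 in Con, a difference of 1.14 ± 0.33 (adjusted p = 0.261). The zinc importer Slc39a10 differed by -0.25 ± 0.07 in cortex, with all DKO arrays below all Con arrays, and by -0.20 ± 0.10 in basal forebrain. Mtf1, the metal sensor, differed by -0.03 ± 0.08 and 0.08 ± 0.06.

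Whether the genotype difference itself differed between regions was tested as an interaction, in which a positive value means a larger difference in basal forebrain. None of the 10 genes passed, and none of 26768 genes did (0% called by limma), with 8.39% of all genes and 0 of the 10 at an unadjusted p under 0.05. The largest interactions of the 10 were those of Plin4 (-0.83 ± 0.97) and Sult1a1 (-0.49 ± 0.45), with wide errors. Nr3c1 had the smallest p of the 10 (-0.21 ± 0.10, limma's unadjusted p = 0.0597, adjusted p = 0.560). Its second probe gave -0.69 (adjusted p = 0.576). With slide as a block the interactions of Plin4 and Sult1a1 were positive, at 0.86 and 0.32, without passing. DKO cortex was the only group with arrays on both slides. The slide term is therefore DKO mouse 3 against DKO mice 1 and 2 in cortex, and it cannot tell slide from mouse.

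The regions differed for 2 of the 10 genes, in DKO and in Con alike, and both genes were lower in basal forebrain. These tests treated the 2 arrays of a mouse as separate, without pairing. Of all genes, 39.8% differed in DKO and 49.1% in Con, and 20.7% and 30.6% were lower. Zbtb16 differed by -2.12 ± 0.28 (basal forebrain minus cortex) in DKO (adjusted p = 0.000106) and by -1.76 ± 0.28 in Con (adjusted p = 0.000391). Every basal forebrain array lay below every cortex array, 1.02 at most against 2.13 at least. Nr3c1 differed by -0.58 ± 0.07 in DKO (adjusted p = 6.31e-05) and by -0.37 ± 0.07 in Con (adjusted p = 0.00149). Levels of Nr3c1 ran from DKO basal forebrain (3.14 ± 0.05, SD, n = 3) and Con basal forebrain (3.24 ± 0.12), which overlap, to Con cortex (3.61 ± 0.06) and DKO cortex (3.73 ± 0.07).

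The second Nr3c1 probe did not give the same region difference. It read 3.04, 2.61 and 2.81 in DKO basal forebrain, against 3.22, 3.01 and 2.64 in DKO cortex, a difference of -0.14 (adjusted p = 0.505). In Con it read 3.03, 2.64 and 2.95 in basal forebrain, against 2.33, 2.25 and 2.38 in cortex, a difference of 0.55 in the opposite direction (adjusted p = 0.0113). The region difference of Nr3c1 in Con therefore reverses with the probe, and the spliced Zbtb16 probe keeps that of Zbtb16. Con basal forebrain and Con cortex arrays lay on different slides, so region and slide cannot be told apart within Con. With slide as a block Nr3c1 differed by -0.59 in DKO (adjusted p = 0.000264) and by -0.39 in Con (adjusted p = 0.0768). That slide term too is DKO mouse 3 against DKO mice 1 and 2 in cortex, so it does not separate slide from mouse.

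**Figure D5:**
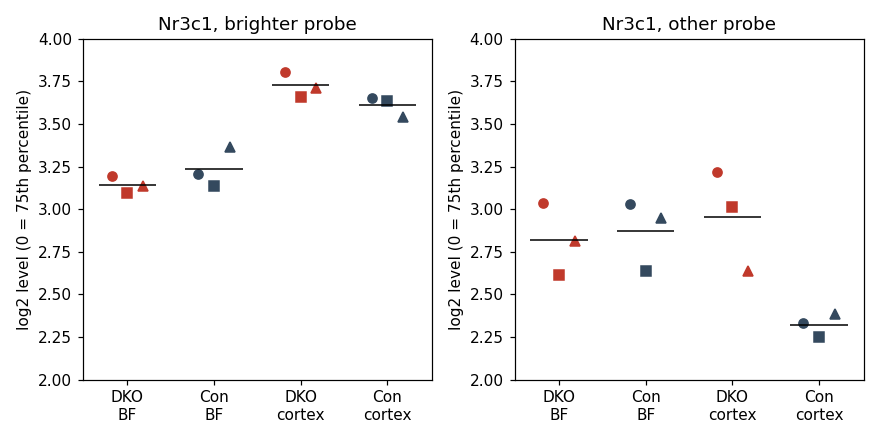
Level of Nr3c1 (y axis, log2 relative to the array's 75th percentile) on its brighter and its other probe in the 4 groups, with mice 1, 2 and 3 as circles, squares and triangles and bars at the mean of 3. On the brighter probe both basal forebrain groups lie below both cortex groups, and on the other probe Con cortex lies below all other groups.

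The other 8 genes did not pass between regions at the 75th-percentile scaling. With quantile normalization the metallothioneins did, higher in basal forebrain: Mt2 in DKO (0.30, adjusted p = 0.00559), and in Con Mt1 (0.35, adjusted p = 0.000440) and Mt2 (0.21, adjusted p = 0.0287). The authors' normalized values passed the same genes in the same groups. In Con, with the 2 arrays of a mouse paired, Pdk4 (-0.38, adjusted p = 0.0397), Plin4 (0.56, 0.0455) and Sult1a1 (0.40, 0.0382) passed as well, Pdk4 lower and Plin4 and Sult1a1 higher in basal forebrain. With slide as a block the Con differences of Plin4 and Sult1a1 had the opposite sign, -1.97 (adjusted p = 0.219) and -0.81 (adjusted p = 0.255). Those values subtract the difference of DKO mouse 3 from DKO mice 1 and 2 in cortex, which may be of slide or of mouse. In DKO, pairing the 2 arrays of a mouse added no gene to the 2. Sult1a1 levels ran from Con cortex (0.68 ± 0.07) and Con basal forebrain (1.08 ± 0.09) to DKO basal forebrain (2.06 ± 0.54) and DKO cortex (2.15 ± 0.75), the last 2 of which overlap.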

How the data were processed

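Per the file headers, arrays were read with Agilent Feature Extraction 10.7.1.1, whose processed intensity is background-subtracted and detrended, with a p-value per spot against background. The deposited log2 values of the series table, used as an alternative, have the same sorted values on all arrays, and the steps behind them are not given in the sources used here. Control and flagged spots were left out, and between 68.9% and 75.0% of probes were well above background per array. The number of arrays limits precision.

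A gene was read from its brightest probe and entered a comparison when that probe was well above background on all 3 arrays of a group. Differences were fitted with limma 3.58.1 (lmFit, eBayes with trend) in R 4.3.3, each region on its own 6 arrays, both regions on means per mouse, and regions and interaction on 12 arrays. Replicates are separate mice by the labels. On simulated data with 200 genes changed, the basal forebrain comparison (25914 genes) recovered 61.2% of 2-fold and 80.6% of 4-fold changes. Cortex (25631 genes) recovered 64.2% and 95.5%. In the data themselves 8 genes passed in basal forebrain and 3 in cortex. The adjustment depends on how many genes change, so the simulated rates do not give the power for the 10 genes. The labels name the mouse of each array and so link the 2 regions of a mouse (correlation of deviations -0.13 to 0.19 in DKO, 0.20 to 0.41 in Con). The means per mouse used this link. The main region and interaction tests did not pair the 2 arrays of a mouse, and the mouse as a block was an alternative. All 10 genes were named, with up to 3 genes of smallest p per companion list and the 2 closest genes per member. The members and lists were chosen with earlier results of these data known. Probe positions are in mm9. A floxed allele and its gene are not reported here.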

Additional observations from a re-analysis of the deposited data

How the results depend on the processing

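Of the values of single genes recomputed under alternatives, 913 kept their sign and their side of the threshold, 34 came to pass, 2 ceased to pass and 73 changed sign, counting the alternatives without DKO mice 1 and 2, which were chosen after seeing the data. Of the 73, 71 were of differences that did not pass, and 0 of these passed with the new sign. The other 2 were the region difference of Nr3c1 in Con, 0.0891 with the mean of its probes and 0.551 with its other probe. None of the 10 genes passed in basal forebrain under any alternative. In cortex between 0 and 5 of the 10 passed, and over both regions between 0 and 2, when each mouse was left out in turn, and 6 and 1 without DKO mice 1 and 3. In the region comparison of DKO 2 to 3 passed with a mouse left out, and 4 without DKO mice 1 and 3. In that of Con 2 to 4 passed with a mouse left out, 4 without DKO mice 1 and 3, 4 with quantile normalization, 4 with the authors' normalized values, 5 with mouse as replicate block and 1 with slide as a block.

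The 71 sign changes were these. With slide as a block or on slide 2 only, as without DKO mice 1 and 2, the cortical genotype difference was -0.204 for Fkbp5 and -0.330 for Zbtb16. With slide as a block the interaction was 0.320 for Fkbp5, 0.160 for Zbtb16, 0.0393 for Sgk1, 0.858 for Plin4 and 0.318 for Sult1a1. The region difference in Con was then -0.852 for Fkbp5, -1.97 for Plin4 and -0.813 for Sult1a1. In both fits the slide term rests on the DKO cortex arrays and cannot be told from DKO mouse 3. Without DKO mice 1 and 2 the basal forebrain genotype difference was -0.403 for Fkbp5, -0.178 for Tsc22d3, -0.0304 for Pdk4 and -0.0622 for Plin4, and that over both regions -0.303 for Fkbp5 and -0.604 for Zbtb16. Without DKO mice 1 and 3 Zbtb16 was 0.0435 in basal forebrain, Nr3c1 -0.0454 and Tsc22d3 0.160 over both regions, the Sgk1 interaction 0.342, and the region difference in DKO 0.288 for Sgk1 and 0.0151 for Pdk4. With the mean of probes Tsc22d3 was 0.0101 and Zbtb16 -0.00535 over both regions, and the region difference in DKO 0.0902 for Fkbp5 and -0.0640 for Tsc22d3. On other probes Sgk1 was -0.272 in basal forebrain, Tsc22d3 0.0366 and Zbtb16 -0.0193 over both regions, and the region difference in DKO 0.394 for Fkbp5 and -0.139 for Tsc22d3. The region difference of Sgk1 was 0.0117 in DKO and 0.0599 in Con with quantile normalization, and 0.0114 and 0.0607 with the authors' normalized values, and that of Sult1a1 in DKO was 0.0171 and 0.0169. With each mouse left out in turn, the basal forebrain genotype difference ran from -0.0256 to 0.377 for Fkbp5, -0.0138 to 0.276 for Tsc22d3, -0.418 to 0.185 for Zbtb16, -0.0576 to 0.635 for Sgk1 and -0.00730 to 0.364 for Pdk4. In cortex it ran from -0.00961 to 0.446 for Zbtb16 and -0.0838 to 0.208 for Pdk4. Over both regions it ran from -0.0211 to 0.0402 for Nr3c1, -0.105 to 0.0486 for Tsc22d3, -0.146 to 0.315 for Zbtb16 and -0.0456 to 0.263 for Pdk4, and the Sgk1 interaction from -0.274 to 0.0516. The region difference in DKO ran from -0.374 to 0.00398 for Fkbp5, -0.0887 to 0.184 for Tsc22d3, -0.302 to 0.00667 for Pdk4, -0.474 to 0.110 for Plin4, -0.237 to 0.155 for Sult1a1 and -0.0225 to 0.144 for Mt1.

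Counts over all genes moved more. In basal forebrain 0 to 29 genes passed with a mouse left out, 5 with normexp, 3 without a filter, 2 with the stricter filter, 0 without DKO mice 1 and 3, 3 without DKO mice 1 and 2, and 0 with the replicate block. In cortex 1 to 9724 passed with a mouse left out, 1 without a filter, 0 with the mean of probes, 1 without the trend, 7733 without DKO mice 1 and 3, 27 without DKO mice 1 and 2, and 27 on slide 2 only. Over both regions 20 to 178 passed with a mouse left out, 16 without a filter, 22 with the stricter filter, 14 without the trend, 8 without DKO mice 1 and 3 and 5 without DKO mice 1 and 2. For the interaction 0 to 1579 passed with a mouse left out and 15 without DKO mice 1 and 3. Between regions, 6374 to 10576 passed in DKO and 6846 to 13828 in Con with a mouse left out, 3569 in DKO without DKO mice 1 and 3, and 2890 in Con with slide as a block. The cause was not tested, except that fewer mice, more genes tested and slides that coincide with genotype follow from the alternatives themselves. The replicate numbers pair no mice between genotypes (correlations of deviations of -0.04, 0.50 and -0.54 in basal forebrain and -0.02, 0.23 and 0.23 in cortex), and the replicate block changed no call of the 10 genes.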
